A study of Citrus maxima with 12 samples.

Results

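The genes described here were higher in fruit with yellow spot disease in the pomelo cultivar Jinlan and stayed near their control level in the cultivar Jinsha. They were chosen from the measured values by 3 limits on group means of FPKM, which counts a gene's fragments per length of transcript and per mapped fragments of its library. In Jinlan, log2 of the diseased mean plus 1 over the control mean plus 1 had to be at least 1, so a doubling on that scale. In Jinsha, the same ratio had to lie between -0.5 and 0.5, and the mean in diseased Jinlan fruit had to be at least 5 FPKM. These limits were met by 336 of 32863 gene identifiers.

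Messenger RNA of fruit of pomelo (Citrus maxima) was sequenced in 12 libraries. The groups were diseased Jinlan, control Jinlan, diseased Jinsha and control Jinsha fruit, with 3 libraries each, and the labels give no age, stage or inoculation for any of them. The labels call the replicates biosamples without tying them to single fruits or trees, so the spread that p-values rest on may be partly or wholly technical. Total FPKM per library ranged from 550055 to 575107, and sequencing depth is unknown. Control Jinlan replicate 3 stood apart from the other control Jinlan libraries, towards diseased fruit, and results that rest on it are given with and without it.

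Plant cells that sense a pathogen change the transcription of many genes, among them genes for signalling proteins, cell wall enzymes and enzymes that make defensive compounds. In citrus fruit the phenylpropanoid pathway, which leads to lignin and flavonoids, is one well-known source of such compounds. Cultivars of one species can differ in which genes respond and in the level a gene has before infection. The table used here pairs no identifier with a gene name or product, so what each gene does is not given here. The labels give the tissue as fruit without saying which part, and in such bulk samples fewer cells of a type and less RNA per cell cannot be told apart.

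Together the 336 genes held a share of the transcript pool in diseased Jinlan fruit that no other group reached. They made up 5.86%, 6.0% and 5.25% of the total FPKM in diseased Jinlan replicates 1 to 3, against 1.89%, 1.75% and 2.4% in control Jinlan replicates 1 to 3. In Jinsha they made up 2.32%, 2.59% and 2.43% in diseased fruit, against 2.63%, 2.63% and 2.43% in control fruit. The diseased Jinlan libraries lay apart from the other 9, and among those 9 the lowest were control Jinlan replicates 1 and 2. The median member was at 32.9 ± 2.5 FPKM in diseased Jinlan, 11.3 ± 1.9 in control Jinlan, 13.1 ± 0.62 in diseased Jinsha and 14.8 ± 1.5 in control Jinsha fruit (SD over libraries, n = 3 each). These levels describe genes chosen for them and were not tested.

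**Figure D1:**
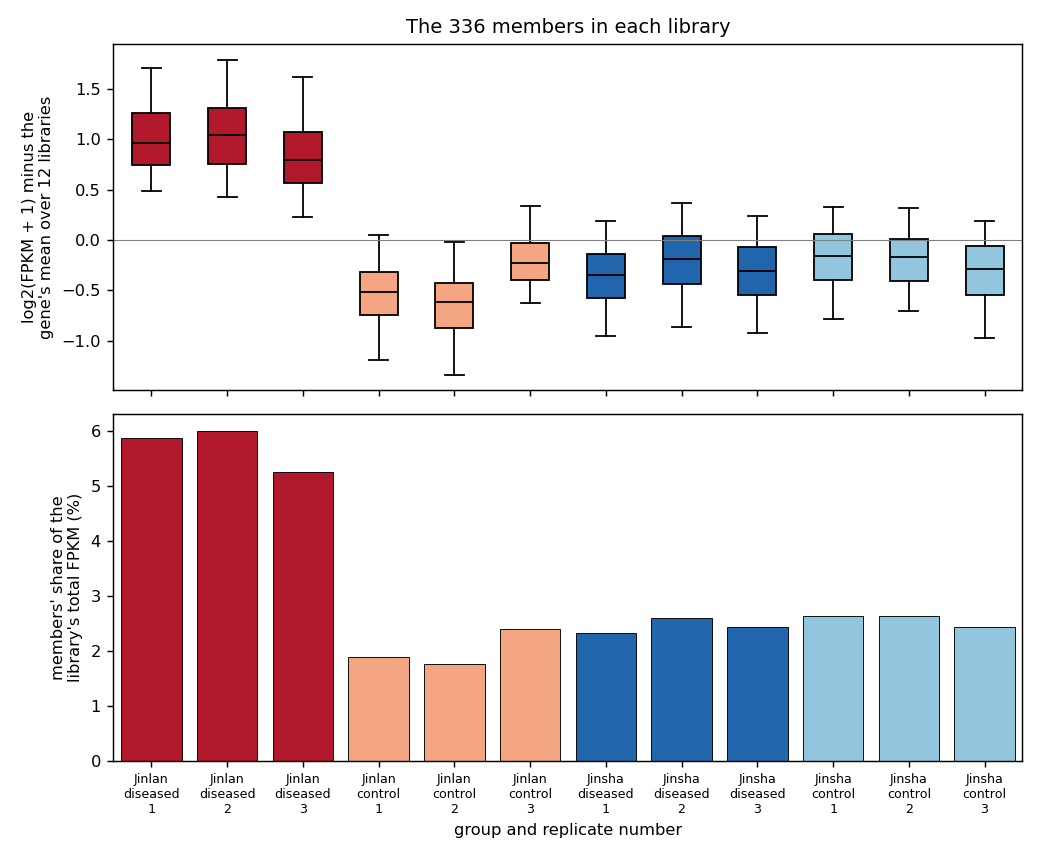
The 336 genes in each of the 12 libraries, as log2(FPKM + 1) minus the gene's mean over all libraries (top; box, quartiles; line, median; whiskers, 5th to 95th percentile) and as percent of the library's total FPKM (bottom; 1 bar per library). The diseased Jinlan bars stand at 5.25% to 6.0% and all others at 1.75% to 2.63%, and control Jinlan replicate 3 is the highest of its group.

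Most members were raised by a moderate amount. The log2 change in Jinlan had a median of 1.32 (quartiles 1.13 and 1.62) and a highest value of 4.56. It was at least 2 for 28 genes and at least 3 for 4 genes. Across the 12140 tested genes that also had at least 5 FPKM in diseased Jinlan fruit the median was 0.03. In Jinsha the members' log2 changes had a median of -0.10 (quartiles -0.29 and 0.13), with 133 genes above 0 and 203 below, and the median of the same 12140 genes was 0.01.

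The limits cut through a continuous cloud of genes. The member nearest to the Jinlan limit had a log2 change of 1.0032 and the nearest gene left out had 0.9994. At the Jinsha limits the nearest values were 0.4959 inside and 0.5076 outside on the upper side, and -0.4956 inside and -0.5035 outside on the lower side. At the level limit they were 5.004 and 4.9943 FPKM. The Jinlan change was below 1.1 in 68 members, and 95 further genes met the other limits with a change of 0.9 to 1. With the Jinlan limit at 1.5 the group would hold 112 genes, and with the Jinsha band at 0.25 it would hold 181.

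**Figure D2:**
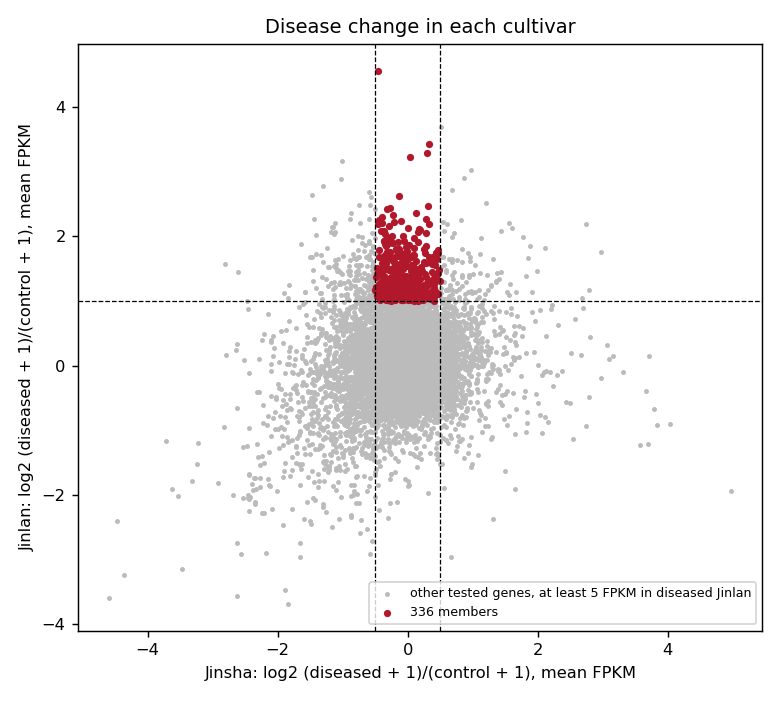
Log2 ratio of diseased to control mean FPKM (1 added to each) in Jinlan (vertical axis) against Jinsha (horizontal axis), for the 336 members (red) and the other tested genes with at least 5 FPKM in diseased Jinlan fruit (grey). Dashed lines mark the limits at 1 in Jinlan and at -0.5 and 0.5 in Jinsha, and the red points continue into grey points on every side where a limit cuts.

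A steady level in Jinsha was the most frequent course among genes raised in Jinlan, but it was less frequent there than among tested genes at large. Of all 616 genes that were at least doubled in Jinlan at 5 FPKM or more, 336 (54.5%) lay in the Jinsha band, 177 (28.7%) lay below it and 103 (16.7%) above it. The band held a larger share, 77%, of the 12140 tested genes of at least 5 FPKM in diseased Jinlan fruit, whatever their change in Jinlan. With the cultivars exchanged, the same limits gave 161 genes raised in Jinsha and steady in Jinlan, 48.3% of the 333 genes raised in Jinsha. That Jinlan band, too, held a larger share, 75.5%, of the 12028 tested genes of at least 5 FPKM in diseased Jinsha fruit.

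The band is one of size and does not mean that nothing differed in Jinsha. The limma model (a linear model across all 17120 tested genes, Benjamini-Hochberg adjusted p below 0.05) called 31 members higher and 74 lower in diseased than in control Jinsha fruit. Among all tested genes 27.3% were called higher and 30.9% lower, and since the band was set on this contrast nothing is read from the members' counts. The count of 31 moved to 20 without diseased Jinsha replicate 2, and the count of 74 moved to 45 without control Jinsha replicate 2 and to 47 without diseased Jinsha replicate 1. The split also depended on scaling, with 45 members higher and 50 lower after quantile normalization, against 32.7% and 26.3% of tested genes. In Jinlan, 335 members were called higher, against 31.4% of all tested genes, and for all 336 the diseased libraries lay above the control libraries, as they did for 34.5% of tested genes. That contrast, too, chose the members.

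The member with the largest change in Jinlan had a low level in control fruit. CgUng021670 had 44.3, 60.5 and 60.2 FPKM in diseased Jinlan replicates 1 to 3, against 1.01, 0.0684 and 3.02 FPKM in control Jinlan replicates 1 to 3. In Jinsha it had 0.494, 1.44 and 0.728 FPKM in diseased fruit, against 2.14, 2.35 and 0.243 FPKM in control fruit. All 3 diseased Jinlan libraries were high and the other 9 were low, and none of those 9 reached 5 FPKM.

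NewGene_240 had the highest mean of all members in diseased Jinlan fruit. It had 1315, 1522 and 1089 FPKM in diseased Jinlan replicates 1 to 3, against 69.5, 40.7 and 252 FPKM in control Jinlan replicates 1 to 3. Its Jinsha values were 132, 145 and 135 FPKM in diseased fruit, against 112, 115 and 101 FPKM in control fruit. The Jinlan groups did not overlap, but control Jinlan replicate 3 stood well above the other control libraries of its cultivar. NewGene_239, which carries the preceding number, had 19.1, 23.5 and 24.4 FPKM in diseased Jinlan fruit, against 0.594, 0.218 and 3.66 FPKM in control Jinlan fruit, and at most 0.179 FPKM in any Jinsha library. In this gene, too, control Jinlan replicate 3 was the highest control library. What the prefix NewGene stands for and where these genes lie is not given in the sources used here.

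**Figure D3:**
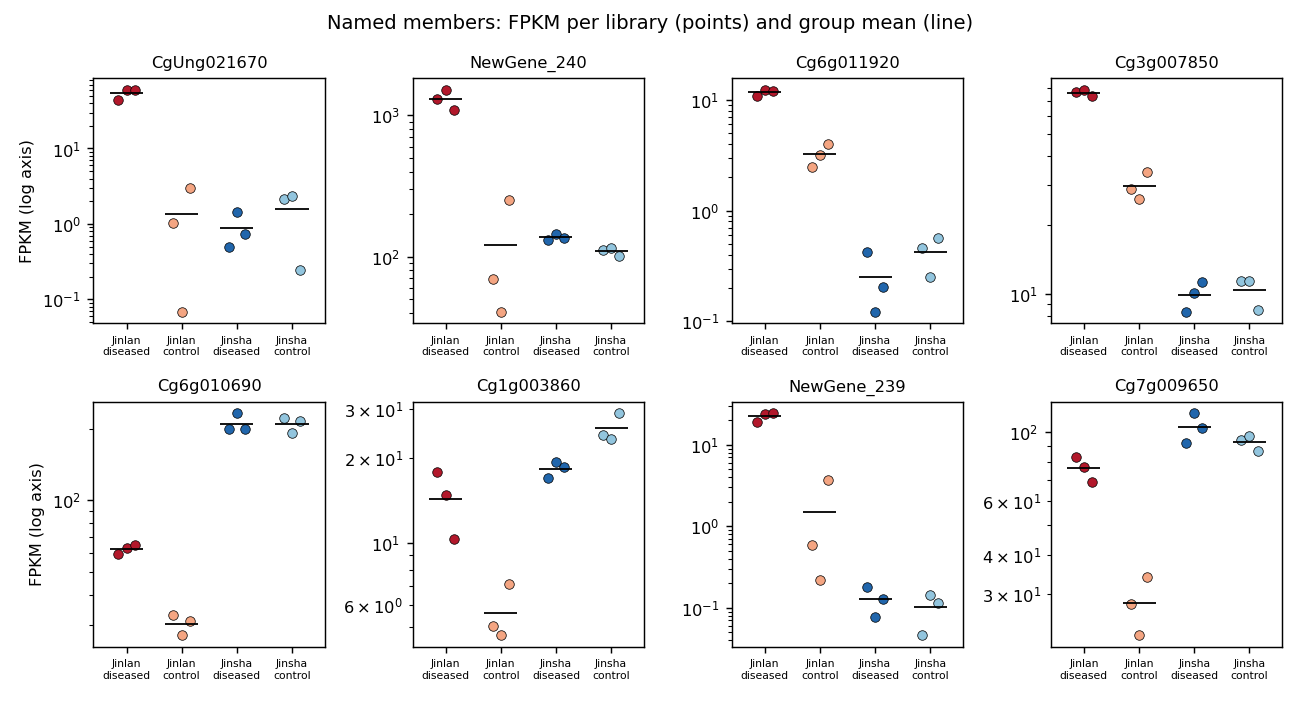
FPKM (log axis) of the 8 named members in diseased Jinlan, control Jinlan, diseased Jinsha and control Jinsha fruit (points, libraries in the order of replicates 1 to 3; line, mean of 3). CgUng021670 and NewGene_239 are high in diseased Jinlan fruit alone, while Cg6g010690 is higher in every Jinsha library (191 to 232 FPKM) than in any Jinlan library.

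Control Jinlan replicate 3 moved with the whole group of genes and not with a few. It was the highest of the 3 control Jinlan libraries for 317 of the 336 members (94.3%), against 27.5% of all tested genes. For each member, the place of a library was taken as its distance from the mean of the other 2 libraries of its group, as a share of the distance from there to the other Jinlan group on the log2(FPKM + 1) scale. The median place of control Jinlan replicate 3 was 0.237 of the way to diseased fruit (quartiles 0.186 and 0.296), against -0.0668 for replicate 1 and -0.21 for replicate 2. Control Jinlan replicate 2 was the lowest of its group for 268 members (79.8%, against 33.1% of tested genes). Over all tested genes, control Jinlan replicate 3 was more often the lowest of its group (42.9%) than the highest. Diseased Jinlan replicate 3 was the lowest of its group for 250 members (74.4%, against 37.3% of tested genes), at a median of 0.117 of the way to control fruit.

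Over the members, the median spread within a group was largest in control Jinlan fruit. The coefficient of variation of a member had a median of 9.3% in diseased Jinlan and 17.3% in control Jinlan fruit, and of 9.56% in diseased Jinsha and 8.87% in control Jinsha fruit. For tested genes of at least 5 FPKM in the group concerned, the medians were 5.37%, 5.65%, 5.75% and 5.68% in the same order, and members had no such minimum outside diseased Jinlan fruit. Without control Jinlan replicate 3 the members' median log2 change in Jinlan was 1.45, and 395 genes met the limits, 335 of them members. Without both Jinlan replicate 3 libraries it was 1.48, and 430 genes met them, 332 of them members.

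**Figure D4:**
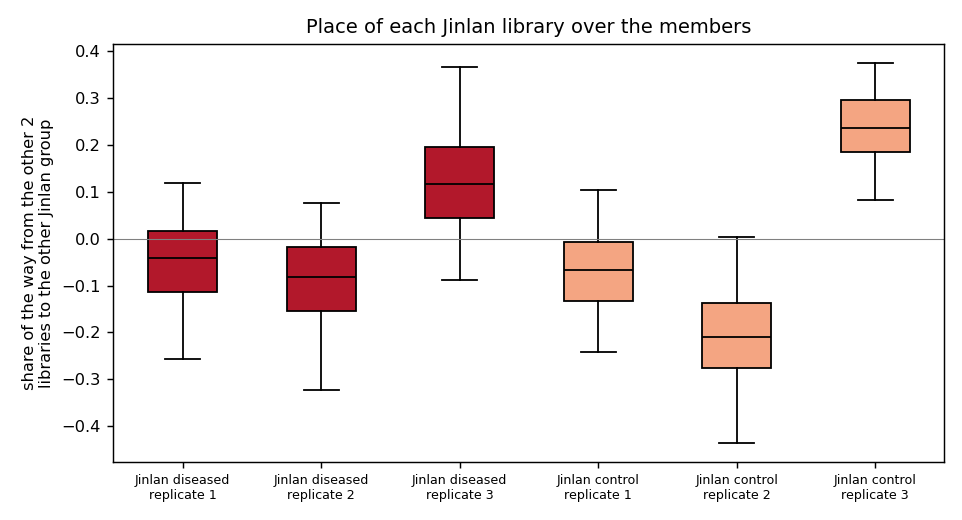
Place of each Jinlan library over the 336 members, as the share of the way from the other 2 libraries of its group (0) to the mean of the other Jinlan group (1) (box, quartiles; line, median; whiskers, 5th to 95th percentile). Replicate 3 of both groups lies above 0, with medians of 0.117 in diseased and 0.237 in control fruit, and the other 4 medians lie below 0.

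To see the pattern in libraries that had no part in the choice, the limits were applied to the libraries of 2 replicate numbers and the ratios were then read in the libraries of the third number. With number 1 left for reading, 324 genes were chosen and 211 of them (65.1%) met both ratio limits in the unused libraries, against 2.98% of all tested genes of the same minimum level. Number 2 gave 211 of 275 (76.7%, against 3.73%). Number 3 gave 148 of 424 (34.9%, against 1.7%), with a median log2 change of 0.91 in Jinlan. The Jinlan limit alone was met by 286, 263 and 175 chosen genes in the same order, against 5.82%, 6.61% and 2.95% of those tested genes. The Jinsha limit alone was met by 235, 218 and 371, against 75.5%, 74.6% and 76.2%. The contrast with tested genes thus lay mostly in the Jinlan ratio, since most tested genes met the Jinsha limit too. The unused diseased Jinlan library was above the unused control Jinlan library for 322 of 324, 273 of 275 and 422 of 424 chosen genes. That share was not counted over all tested genes of the same minimum level, so nothing is read from these counts. The median log2 change of those tested genes in the same Jinlan libraries was 0.015, 0.013 and 0.049. Each reading rests on 1 library per group, so no test was made. Since the replicates may be technical, the unused libraries need not be independent of those that chose the genes. The lower share with number 3 goes with the place of both Jinlan replicate 3 libraries described above, and the part they have in it was not tested.

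Transcript levels of the members spanned more than 2 orders of magnitude, and few were below 1 FPKM in control fruit. In diseased Jinlan fruit 130 members had 5 to 20 FPKM, 128 had 20 to 100 and 78 had 100 or more. In control Jinlan fruit the mean was below 1 FPKM for 4 members and from 1 to 5 for 94, and 36 had 100 or more. In Jinsha, which had no level limit, the mean was below 1 FPKM for 13 members in diseased and for 8 in control fruit, and 100 FPKM or more for 47 in diseased and 46 in control fruit. All 6 Jinsha libraries were below 1 FPKM for 5 members, among them Cg6g011920 and NewGene_239. The pattern was thus mostly one of genes expressed in both cultivars.

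The Jinsha libraries were then placed in the range of the Jinlan libraries. All 6 Jinsha libraries were below every diseased Jinlan library for 307 of 336 members (91.4%, against 18.6% of tested genes). They lay between the diseased and the control Jinlan libraries for 74 members (22%, against 1.61%), below every control Jinlan library for 42 (12.5%, against 12.9%) and above every diseased Jinlan library for 3 (0.893%, against 28.3%). The limits, a doubling in Jinlan and a steady level in Jinsha, largely set these counts, so they describe the members and support nothing. For the other 217 they overlapped one of the Jinlan groups or both. Taken as a share of the way from control (0) to diseased (1) Jinlan fruit, the mean Jinsha level had a median of 0.157 (quartiles -0.124 and 0.424).

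Whether the cultivars differed at these genes in control fruit was then tested. No limit was set on that difference, but both control means enter the limits, so the test is not free of the choice. Jinlan was lower than Jinsha for 156 members (46.4%) and higher for 58 (17.3%), against 36.8% and 21.2% of all 17120 tested genes, by limma with an adjusted p below 0.05. The median log2 difference, Jinlan minus Jinsha, was -0.28 over members and -0.09 over tested genes. After median-ratio scaling 134 members were lower and 69 higher, 39.9% and 20.5%, against 28% and 28.5% of tested genes. The choice of members favours genes whose control Jinlan values happened to be low, so the surplus of lower calls is not independent of the choice. Control Jinlan replicate 3 weighed on the count of higher calls: without it 36 members were higher and 181 lower, against 20.1% and 33.5% of tested genes.

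At a difference of at least 2-fold, 27 members were lower and 7 higher in control Jinlan fruit (8.04% and 2.08%, against 2.96% and 2.02% of tested genes). Here, too, the choice favours genes with low control Jinlan values. The surplus of lower calls, and the adjusted p-values of the lower genes named next, are therefore not independent of the choice. Cg6g010690 had the largest deficit. It had 33, 27.2 and 31.1 FPKM in control Jinlan replicates 1 to 3, against 221, 191 and 215 FPKM in control Jinsha replicates 1 to 3. The log2 difference was -2.74 (SE 0.08, limma adjusted p = 7.28e-10). Its diseased Jinlan values of 59.5, 62.9 and 64.8 FPKM were still below the 198, 232 and 198 FPKM of diseased Jinsha fruit, so a gene doubled in diseased Jinlan fruit stayed well under the level that Jinsha had with and without disease.

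Cg1g003860 was the next lowest. It had 5.04, 4.65 and 7.11 FPKM in control Jinlan fruit, against 24.2, 23.5 and 29 FPKM in control Jinsha fruit, with a log2 difference of -2.02 (SE 0.17, limma adjusted p = 8.62e-07). In diseased fruit it had 17.8, 14.8 and 10.3 FPKM in Jinlan, against 17, 19.4 and 18.7 FPKM in Jinsha, and these groups overlapped. Though inside the Jinsha band, it was called lower in diseased than in control Jinsha fruit (log2 difference -0.45, limma adjusted p = 0.0351). The narrower gap in diseased fruit thus goes with a rise in Jinlan and a smaller fall in Jinsha. The cultivars thus differed in control fruit, and in diseased fruit the log2 difference of -0.37 (SE 0.17, limma adjusted p = 0.0716) missed the threshold. Without diseased Jinlan replicate 1 that difference was -0.53 and was called (limma adjusted p = 0.0145), and without control Jinlan replicate 3 it was -0.37 and was called (limma adjusted p = 0.0466).

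Other members were higher in Jinlan than in Jinsha in control fruit. Cg6g011920 and Cg3g007850 were named for the largest such differences among called members whose groups did not overlap. Their adjusted p-values are therefore not independent of how they were picked. Cg6g011920 had 2.46, 3.16 and 4.01 FPKM in control Jinlan fruit, against 0.462, 0.25 and 0.566 FPKM in control Jinsha fruit. Its log2 difference was 1.55 (SE 0.14, limma adjusted p = 1.5e-06), and at these low levels it depended on the value added before the logarithm, with 2.68 when 0.1 was added and 0.59 when 5 was added. It reached 10.7, 12.4 and 12 FPKM in diseased Jinlan fruit, against 0.424, 0.122 and 0.203 FPKM in diseased Jinsha fruit.

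Cg3g007850 had 28.8, 26.1 and 34.2 FPKM in control Jinlan fruit, against 11.4, 11.4 and 8.49 FPKM in control Jinsha fruit. The groups did not overlap, and the log2 difference was 1.43 (SE 0.12, limma adjusted p = 1.01e-06). In diseased fruit it had 76.5, 78.7 and 73.7 FPKM in Jinlan, against 8.32, 10.1 and 11.2 FPKM in Jinsha. The wider gap in diseased fruit follows from the limits, which ask for a rise in Jinlan and a steady level in Jinsha.

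In diseased fruit most members were higher in Jinlan, which the limits largely set. Limma called 313 members higher and 3 lower in diseased Jinlan than in diseased Jinsha fruit, where 28.6% and 38.7% of tested genes were called. The median log2 difference was 1.24 over members. Besides Cg6g010690, with a log2 difference of -1.73, the lower genes included Cg7g009650. It had 83, 77.3 and 68.9 FPKM in diseased Jinlan fruit, against 92.6, 115 and 103 FPKM in diseased Jinsha fruit, and 27.9, 22 and 34 FPKM in control Jinlan fruit, against 94, 97.4 and 86.7 FPKM in control Jinsha fruit. The level of Cg7g009650 in diseased Jinlan fruit was thus a little under its level in Jinsha fruit with and without disease. The count of 3 was 5 without control Jinlan replicate 3 and 5 without diseased Jinlan replicate 1.

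**Figure D5:**
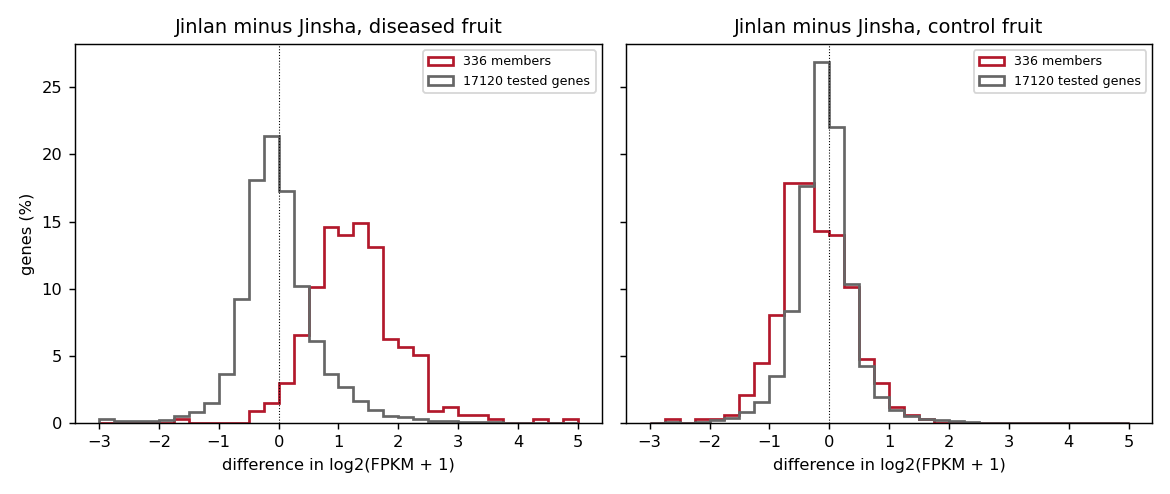
Difference between the cultivars (Jinlan minus Jinsha, log2(FPKM + 1)) in diseased fruit (left) and in control fruit (right), as percent of the 336 members (red) and of the 17120 tested genes (grey), with values beyond the axis placed in the outermost bars. The members' median is 1.24 in diseased and -0.28 in control fruit, and that of tested genes is -0.07 and -0.09.

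The identifiers themselves carry a prefix and a number. Members were found under every prefix. The prefix Cg1g had 44 members (13.1%, against 9.07% of tested genes), Cg7g had 35 (10.4%, against 8.66%) and Cg5g had 43 (12.8%, against 16.4%). CgUng had 3 (0.893%, against 2.65%), and NewGene had 22 (6.55%, against 6.19%). Neighbours were sought among the identifiers that start with Cg alone, so NewGene identifiers such as NewGene_239 and NewGene_240 are not in these counts. Neighbouring identifiers were paired among those members 17 times, with 33 genes in such pairs. The same count was not made over all tested genes, so nothing is read from it. Of the 392 tested genes next to such a member by number that were no members themselves, 33 (8.42%) had a log2 change of at least 1 in Jinlan. Among all tested genes it was 4.45%, but these include the members, which were chosen for such a change and raise that share. The share among tested genes that are no members was not counted, so the size of the gap is not read. The table gives no positions or sequences, so it was not tested whether neighbours are similar copies whose fragments could be exchanged in counting.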

How the data were processed

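The authors deposited FPKM per gene for all libraries in 1 table, without counts. No aligner, genome build, annotation or counting tool is named in the labels or the table (not given in the sources used here). Low values were searched for steps of whole fragments and showed none (of 1350 genes below 0.2 FPKM in both control Jinlan replicates 1 and 2, at most 4 had the same ratio), so depth is unknown and no counting interval is given. Columns were matched to samples by title. The highest share of identical nonzero values in a pair of libraries was 0.00438%, and all libraries were kept as separate samples.

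Values were transformed to log2(FPKM + 1), which understates changes of low genes. The tested genes reached 1 FPKM in 3 or more libraries (17120 genes, all 336 members among them). They were fitted in R 4.3.3 with 4 group means over all 12 libraries, using limma 3.58.1 and its moderated test with a mean-variance trend. P-values were Benjamini-Hochberg adjusted over all tested genes. The fit was tested on simulated data. Figures were drawn with matplotlib 3.10.9. Lists of genes by function could not be used without gene names.

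The members, comparisons and alternatives were chosen with earlier results of these data known. No more than 2 identifiers per comparison and direction are named, even for small counts: those with the largest Jinlan change whose Jinlan groups did not overlap, and those with the largest differences between cultivars among called members whose groups did not overlap. The places of single libraries and the identifier numbers were looked at after the data had been seen. Alternatives were other pseudocounts, scalings, filters, limits, fits, library weights, a replicate block and leaving out libraries. Metabolite data were not analysed here.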

Additional observations from a re-analysis of the deposited data

Results flagged for a closer look

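The limma test of the difference between the cultivars' disease changes called all 8 named members. The members were chosen to be raised in Jinlan and steady in Jinsha, so this was largely set by the choice. The log2 differences, Jinlan change minus Jinsha change, were 5.11 for CgUng021670, 3.52 for NewGene_240, 3.44 for NewGene_239, 1.80 for Cg6g011920, 1.66 for Cg1g003860, 1.41 for Cg3g007850, 1.28 for Cg7g009650 and 1.01 for Cg6g010690. Groups of 3 libraries were not searched for single outlying values.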

How the results depend on the processing

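The number of members was 336, and it was 112 with a Jinlan limit of 1.5, 181 with a Jinsha band of 0.25 and 206 with at least 20 FPKM in diseased Jinlan fruit. With at least 1 FPKM in diseased Jinlan fruit it was 448. Other pseudocounts and scalings gave 244 to 358. Of the 244 genes found with a pseudocount of 5, 201 were among the 336 members, so part of the group depends on the value added. Leaving out single libraries gave 295 to 395 members. In the comparison of control fruit, leaving out single libraries gave 36 to 67 members higher and 130 to 181 lower in Jinlan. In diseased fruit 3 to 5 were lower. For disease in Jinsha, leaving out single libraries gave 20 to 43 members higher and 45 to 97 lower. With a fit to the compared groups alone 49 were higher, and without both Jinlan replicate 3 libraries, an alternative added after seeing the data, 48 were higher. Shares over all tested genes were counted for only some of these settings, so the ranges show how far the counts moved and no more. Of 19 differences of named genes recomputed under these alternatives (8 of them differences of disease change, which had no fit to the compared groups alone), none changed sign. The difference of Cg1g003860 between the cultivars in diseased fruit, -0.37 and not called, was called at -0.37 without control Jinlan replicate 3 (adjusted p = 0.0466) and at -0.53 without diseased Jinlan replicate 1 (limma adjusted p = 0.0145), and the other 18 stayed called. Without both Jinlan replicate 3 libraries NewGene_239 did not pass the filter and gave no value.

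Same-numbered libraries did not deviate together (Pearson's r between -0.17 and 0.0398 over tested genes). In 2 of 36 comparisons of a library with another group was its own number the closest. Whether same-numbered libraries share a fruit, tree or batch cannot be told from these values. With a replicate block 52 members were higher and 155 lower in control Jinlan fruit, 313 higher and 3 lower in diseased Jinlan fruit, 335 higher in the Jinlan disease comparison, and 28 higher and 64 lower in the Jinsha disease comparison. The shares of all tested genes called with this block were not counted, so nothing about the members is read from these counts.

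Sequencing depth is unknown, so low values carry an error that cannot be given.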
